A study of Homo sapiens with 14 samples.

Results

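The PAX genes encode transcription factors that bind DNA through a paired domain, and some members carry a homeodomain as well. The family falls into pairs and trios of close relatives. PAX1 and PAX9 act in the skeleton, thymus and teeth. PAX2, PAX5 and PAX8 act in the kidney, in B lymphocytes and in the thyroid. PAX3 and PAX7 specify muscle and neural crest cells, and PAX4 and PAX6 act in the pancreatic islet, with PAX6 also required in the eye and brain. PAX proteins switch target genes on or off together with partners such as sine oculis homeobox proteins, EYA proteins and the TLE corepressors.

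All 9 PAX genes, PAX1 to PAX9, were taken by symbol from the expression tables of DU145 and LNCaP, which are both human prostate cancer cell lines. The DU145 table lists 24199 features and the one for LNCaP 44591 genes, and each lists all 9 members. In DU145, 3 libraries of cells with a non-target hairpin (shCON) were set against 3 libraries of cells with a hairpin against PAX6 (shPAX6). Both kinds were stable lines made with a lentiviral vector, and the labels do not state which of the study's PAX6 hairpins each shPAX6 library carries, or whether all 3 carry the same one. In LNCaP, 1 library of parental cells was set against 1 library of LNCaP-ENZ cells, which had been kept in 20 µM enzalutamide (a hormone-therapy drug) for 30 days. The labels do not say whether the 3 libraries of a DU145 group came from separate cultures, so p-values measure the spread between these libraries, which may be technical. The questions were which members each line expresses and whether PAX6 was the member that differed after the knockdown.

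DU145 values are FPKM, which scale reads by gene length and library size, and read depth cannot be had from them. LNCaP values are counts, 20468001 in the parental library and 17945722 in LNCaP-ENZ, and TPM, which scale the counts by gene length. Among the DU145 libraries, shPAX6 library 1 stood apart, with the highest column sum (570790 FPKM, against 448901 in the lowest library) and the fewest features above 0, 17170. Of 7 luminal prostate markers, 6 had a mean under 0.05 FPKM in DU145, KLK3 among them, while the keratin KRT8 was between 635 and 994 FPKM in every library. LNCaP held 1817 and 1186 counts of KLK3 in the parental and LNCaP-ENZ library. The 3 basal prostate markers were listed at 0 in every DU145 library and held 4 and 0 counts in all in LNCaP. Summed leukocyte markers reached at most 1.18 FPKM in DU145 and 28 counts in LNCaP, and summed fibroblast and endothelial markers at most 0.755 FPKM and 459 counts.

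Because the members descend from 1 ancestral paired domain, their sequences decide whether reads and hairpins can tell them apart. The 60 coding bases of PAX6 that were most alike in the other members lie in the paired box. They are shown for every member, 5′ to 3′, with capitals for the 27 bases that are the same in all 9 genes.
PAX6: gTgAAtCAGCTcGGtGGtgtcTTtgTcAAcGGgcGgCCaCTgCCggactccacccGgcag
PAX4: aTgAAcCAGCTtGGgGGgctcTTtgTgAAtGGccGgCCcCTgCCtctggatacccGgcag
PAX1: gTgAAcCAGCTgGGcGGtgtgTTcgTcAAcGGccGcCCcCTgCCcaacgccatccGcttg
PAX9: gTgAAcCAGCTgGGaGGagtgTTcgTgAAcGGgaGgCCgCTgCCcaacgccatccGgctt
PAX2: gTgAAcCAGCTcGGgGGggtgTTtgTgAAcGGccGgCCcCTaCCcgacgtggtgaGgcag
PAX5: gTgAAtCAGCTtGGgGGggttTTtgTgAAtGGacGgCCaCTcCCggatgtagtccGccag
PAX8: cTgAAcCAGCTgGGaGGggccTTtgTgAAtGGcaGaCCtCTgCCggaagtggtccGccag
PAX3: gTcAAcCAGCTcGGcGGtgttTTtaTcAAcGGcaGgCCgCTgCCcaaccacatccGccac
PAX7: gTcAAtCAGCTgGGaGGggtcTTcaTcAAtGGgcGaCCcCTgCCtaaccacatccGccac

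In GRCh37, the PAX6 window lies in 1 coding exon at chr11:31824312-31824371 on the minus strand and begins at codon 8 of the canonical transcript. The PAX9 window lies at chr14:37132119-37132178 on the plus strand and the PAX1 window at chr20:21687093-21687152 on the plus strand. Even here the other members differed from PAX6 at between 15 and 19 of the 60 bases, with PAX8 the most distant at 68.3% identity. Between whole coding sequences, the longest run of identical bases shared with PAX6 was 16 for PAX3, 15 for PAX7, 14 for PAX4 and PAX5, 12 for PAX8, 11 for PAX1 and PAX2, and 10 for PAX9. The run shared with PAX3, the longest of these, is TGGGAAATCCGAGACA at chr11:31823153-31823168 on the minus strand, in the coding sequence of PAX6. Longer runs joined other members, 33 bases for PAX3 with PAX7 and 23 bases for PAX1 with PAX9. Over all annotated coding transcripts, untranslated parts included, the longest runs shared with PAX6 were 36 bases for PAX5 and 25 for PAX4, and each consisted of only 2 different letters. The hairpin's own sequence is not used here, so its match to these genes was not examined.

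PAX6 was the member targeted in DU145, and it was lower in every shPAX6 library than in any shCON library. PAX6 (ENSG00000007372, GRCh37 chr11:31806327-31839509, minus strand) is a paired and homeodomain factor of eye, brain and islet. Its level was 0.839, 1.23 and 1.57 FPKM in shCON libraries 1 to 3, and 0.0153, 0.274 and 0.0778 FPKM in shPAX6 libraries 1 to 3. The groups therefore did not overlap, and shPAX6 library 2 kept the most, 22.6% of the shCON mean, against 1.27% in library 1 and 6.42% in library 3. The means were 1.21 ± 0.367 FPKM in shCON and 0.122 ± 0.135 FPKM in shPAX6 (SD, n = 3 each), so 10.1% of the shCON mean remained.

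Fitted with limma on log2(FPKM + 0.1) across the 13574 features that averaged 0.5 FPKM or more, the PAX6 log2 fold change was -2.69 (SE 0.49, 95% confidence interval -3.83 to -1.56). PAX6 averaged 0.667 FPKM over the 6 libraries and passed this filter only through shCON, as its shPAX6 mean lay under 0.5 FPKM. Its limma p was 0.000684 before adjustment and 0.0539 after Benjamini-Hochberg adjustment over all features, which did not pass the threshold of 0.05. The exact two-sided permutation test gave p = 0.1, the smallest that 3 against 3 libraries allow. Across all features, 1.02% were called lower and 0.177% higher in shPAX6, and 0 of the 2 PAX genes tested by limma were called, though both had an unadjusted p under 0.05, as did 18.3% of all tested features. Every shPAX6 value lay below every shCON value for 20.0% of tested features, and above for 6.70%. The adjusted p of PAX6 was 0.0389 with a pseudocount of 1, 0.0884 with 0.01, 0.118 without the filter, 0.0485 without the intensity trend, 0.0103 without shPAX6 library 2 and 0.0223 without shPAX6 library 1, and it was 0.22 without shPAX6 library 3 and between 0.196 and 0.33 without any 1 shCON library.

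**Figure D1:**
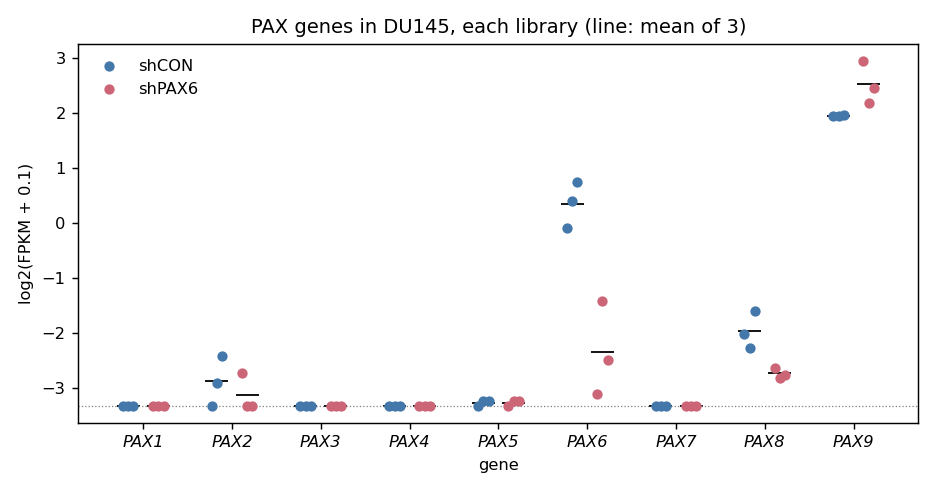
Level of each PAX gene in DU145 on the log2(FPKM + 0.1) scale, with 1 point per library, shCON in blue, shPAX6 in red, and a black line at the mean of 3 libraries; the dotted line marks 0 FPKM. PAX9 is the highest member in every library, PAX6 is lower in all 3 shPAX6 libraries, and PAX1, PAX3, PAX4 and PAX7 sit at 0 throughout.

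PAX9 was the most expressed member in DU145, ahead of PAX6 in all 6 libraries. PAX9 (ENSG00000198807, GRCh37 chr14:37126773-37148567, plus strand) is required for teeth, thymus and pharyngeal pouches. It was steady in shCON, at 3.75, 3.78 and 3.78 FPKM, and reached 7.60, 4.46 and 5.40 FPKM in shPAX6. All 3 shPAX6 libraries thus lay above all 3 shCON libraries, and the spread among them, 1.61 FPKM (SD, n = 3), was far wider than the 0.0211 FPKM of shCON. The limma log2 fold change was 0.58 (SE 0.22, 95% confidence interval 0.05 to 1.10), with p = 0.0346 before adjustment and 0.234 after it, and the exact permutation test gave p = 0.1. The highest value belonged to shPAX6 library 1, which had the highest column sum. Without that library the log2 fold change was 0.37 (adjusted p = 0.203 by limma), and without shPAX6 library 2 it was 0.75 (adjusted p = 0.0616). The part of that library's composition in the PAX9 difference was not tested.

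The contrast between the targeted member and PAX9 was tested within libraries. On the log2(FPKM + 0.1) scale, PAX6 minus PAX9 was -2.03, -1.55 and -1.22 in shCON libraries 1 to 3 and -6.06, -3.61 and -4.95 in shPAX6 libraries 1 to 3. The means were -1.60 ± 0.41 and -4.87 ± 1.23 (SD, n = 3 each), a difference of -3.27, and the groups did not overlap. This was the 1 pair compared, since no other member passed the filter, and its exact two-sided permutation p was 0.1, the smallest possible. PAX6 itself passed the filter only through its shCON values. PAX6 made up 17.7% to 27.7% of the summed PAX FPKM in shCON and 0.199% to 5.74% in shPAX6, while PAX9 made up 66.6% to 79.2% and 93.3% to 98.4%. These shares restate the same values, since a fall of PAX6 alone would raise the share of PAX9. Summed over the 9 members, the level was 4.73 to 5.68 FPKM in shCON and 4.78 to 7.72 FPKM in shPAX6, so the ranges overlapped.

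PAX8 was the third member by level and lay far under the filter. PAX8 (ENSG00000125618, GRCh37 chr2:113973574-114036498, minus strand) drives thyroid and kidney genes. It was 0.147, 0.108 and 0.230 FPKM in shCON and 0.0614, 0.0412 and 0.0479 FPKM in shPAX6, so every shPAX6 value was below every shCON value. The log2 difference on the log2(FPKM + 0.1) scale was -0.78, with an exact permutation p of 0.1, or 0.167 after Benjamini-Hochberg adjustment over the 5 members with any value above 0. Because the FPKM carry no counts, how many reads lie behind values this low is unknown.

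The remaining members were at or near 0 in DU145. PAX2, a factor of kidney and optic nerve, was listed at 0, 0.0335 and 0.0874 FPKM in shCON and at 0.0501, 0 and 0 FPKM in shPAX6, and these ranges overlapped. PAX5, the B lymphocyte factor, was above 0 in 4 libraries and never exceeded 0.00602 FPKM. PAX1, PAX3, PAX4 and PAX7 were listed at 0 in all 6 libraries. In all, 4 members had no value above 0, 5 had at least 1 such value, and 2 passed the filter of 0.5 FPKM.

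PAX1, listed at 0 in DU145, was the leading PAX gene of LNCaP. PAX1 (GRCh37 chr20:21686297-21699124 in the LNCaP table, plus strand) patterns the vertebral column and thymus. It held 1172 counts in parental cells and 332 in LNCaP-ENZ, or 57.3 counts per 1000000 (CPM; 95% Poisson interval 54.0 to 60.6) and 18.5 CPM (16.6 to 20.6). The log2 ratio of LNCaP-ENZ to parental cells was -1.63 (95% exact Clopper-Pearson interval -1.81 to -1.45), a 3.08-fold lower level. These intervals cover counting error only and, unlike the log2 ratios, carry no pseudocount. With 1 library per arm, no difference in LNCaP has a replicate check or a test. PAX9, its closest relative, held 250 and 134 counts, or 12.2 CPM (10.7 to 13.8) and 7.47 CPM (6.26 to 8.84), a log2 ratio of -0.70 (-1.02 to -0.40). PAX1 made up 79.7% of the counts of the family in parental cells (95% Wilson interval 77.5% to 81.7%) and 68.5% in LNCaP-ENZ (64.2% to 72.4%), and PAX1 with PAX9 made up 96.7% and 96.1%.

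**Figure D2:**
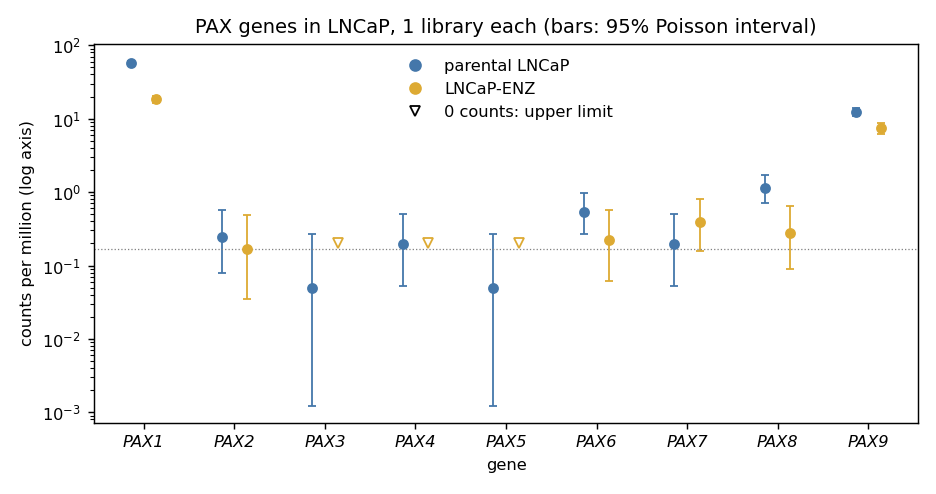
CPM of each PAX gene in parental LNCaP (blue) and LNCaP-ENZ (yellow) on a log axis, 1 library each, with 95% Poisson intervals; open triangles give the upper limit where the count was 0, and the dotted line is the level of 3 counts in LNCaP-ENZ (0.167 CPM). PAX1 and PAX9 stand well above the other members in both libraries, and both are lower in LNCaP-ENZ.

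The other members were rare in LNCaP. PAX8 held 23 counts in parental cells and 5 in LNCaP-ENZ, 1.12 CPM (0.712 to 1.69) against 0.279 CPM (0.0905 to 0.650), with a log2 ratio of -1.69 (-3.76 to -0.58). PAX6 itself held 11 and 4 counts, 0.537 CPM (0.268 to 0.962) against 0.223 CPM (0.0607 to 0.571). Its log2 ratio was -0.98, and the interval for counting error, from -3.38 to 0.49, included 0. The study, by contrast, reports higher PAX6 mRNA and protein in its enzalutamide-resistant LNCaP cells than in control cells. With so few counts and 1 library per arm, the values here cannot decide on that difference. PAX2 held 5 and 3 counts (log2 ratio -0.37, interval -3.23 to 1.81), and PAX7 held 4 and 7 counts (0.73, interval -0.98 to 3.22). PAX4 held 4 counts in parental cells and 0 in LNCaP-ENZ, where the 95% Poisson upper limit is 0.206 CPM, above the parental 0.195 CPM, so no direction can be given. PAX3 and PAX5 held 1 and 0 counts each, and no ratio is given for them.

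The interval of the log2 ratio lay wholly below 0 for PAX1, PAX8 and PAX9. Of the 5 members with over 3 counts in both libraries, 2 (PAX1 and PAX8) were at least 2-fold lower in LNCaP-ENZ and 0 at least 2-fold higher, against 10.2% and 2.84% of the 18342 genes with over 3 counts in both. PAX2 and PAX4 passed 3 counts only in parental cells, where they could only come out lower, and are left out of this count. The count also depends on the pseudocount of 0.1 CPM. The log2 ratio of PAX6 was -1.23 with a pseudocount of 0.01, and that of PAX8 was -0.73 with a pseudocount of 1. Of the luminal markers, 3 of 7 were also at least 2-fold lower, among them KLK2 (1830 and 709 counts) and TMPRSS2 (5394 and 1471), and their part in the PAX values was not tested. In bulk RNA, fewer cells of a type and less RNA per cell cannot be told apart.

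Per length, the order of the members differed between the lines. In parental LNCaP it ran from PAX1 at 11.2 TPM through PAX9 at 4.10 and PAX8 at 0.289 TPM to the 6 others, none above 0.101 TPM, whose few counts do not separate them. In shCON it ran from PAX9 through PAX6 to PAX8, each above the next in all 3 libraries, whereas in shPAX6 the values of PAX6 and PAX8 overlapped.

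To set both lines side by side, each member was also expressed as its share, in parts per 1000000 (ppm), of the summed per-length values of 18687 protein-coding genes that both tables list, since the noncoding RNA RN7SK alone took 12.3% of parental and 13.0% of LNCaP-ENZ counts. The tables were normalized separately, so these levels were not tested against each other. PAX6 was at 0.198 ppm in parental LNCaP and 0.0806 in LNCaP-ENZ, against 2.77 ± 0.862 in shCON and 0.289 ± 0.338 in shPAX6 (SD, n = 3 each). The shPAX6 libraries, from 0.0291 to 0.671 ppm, enclosed the parental LNCaP value, and all 3 shCON libraries lay above it. In rank, PAX6 stood at percentile 25.2 of these genes in parental LNCaP, 40.5 to 45.1 in shCON and 26.6 to 35.1 in shPAX6. PAX9 was present in both lines, at 13.7 and 8.23 ppm in parental LNCaP and LNCaP-ENZ, 8.61 ± 0.158 in shCON and 12.3 ± 1.85 in shPAX6. PAX1 was at 37.3 and 11.9 ppm in the LNCaP libraries and listed at 0 in DU145.

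**Figure D3:**
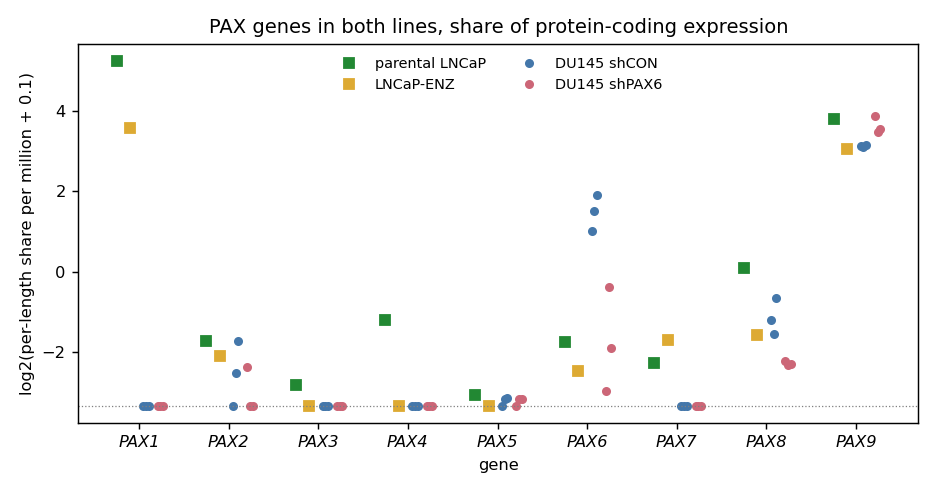
Per-length share of each PAX gene, in ppm, of 18687 shared protein-coding genes, on the log2(share + 0.1) scale, with squares for the LNCaP libraries and points for the 6 DU145 libraries; the dotted line marks 0. PAX9 lies between 8.23 and 14.4 ppm in all 8 libraries, PAX1 is above 0 only in the 2 LNCaP libraries, and PAX6 is highest in the 3 shCON libraries.

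Neighbouring and overlapping genes were read beside the members, since the strand setting of the counting is not given in the sources used here and reads of overlapping genes cannot then be told apart. The end of ELP4, an Elongator subunit on the opposite strand, overlaps PAX6 over 5546 bases. ELP4 was 4.13, 3.57 and 8.96 FPKM in shCON and 2.11, 7.73 and 2.91 FPKM in shPAX6, with overlapping groups (log2 fold change -0.48, SE 0.52, limma adjusted p = 0.695). In LNCaP, ELP4 held 169 and 175 counts while PAX6 held 11 and 4. Of 5 tested genes around PAX6 on chromosome 11, 0 were called by limma and 0 had an unadjusted p under 0.05, and their median log2 fold change was 0.03, against -0.12 over all tested features. The sign of that median was not stable, at 0.21 with median centring and -0.12 with the GC correction. EIF3M, a translation initiation factor subunit, was the highest of them at 0.38 (adjusted p = 0.355), followed by IMMP1L, a mitochondrial peptidase subunit, at 0.37, while DNAJC24 was at -0.08. SLC25A21, a mitochondrial carrier that overlaps the end of PAX9 over 1442 bases on the opposite strand in the annotation, was 37.1, 33.9 and 29.9 FPKM in shCON and 29.1, 40.5 and 41.5 FPKM in shPAX6, so its groups overlapped where those of PAX9 did not. PAX8-AS1, antisense to PAX8, held 1 and 0 counts in LNCaP, and its DU145 level was not analysed here. The antisense RNAs PAXIP1-AS1 (333 and 151 counts in LNCaP, log2 ratio -0.94) and PAXIP1-AS2 (101 and 53, -0.72) lie beside the gene of a PAX partner, and PAXBP1-AS1 held 19 and 17 counts.

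Among 28 partners and cofactors of PAX proteins, 17 were tested in DU145, of which 1 fell and 16 were not called, against the 1.02% called lower over all features. SIX5, a sine oculis homeobox factor, was the one that fell, from 9.28, 10.8 and 10.97 FPKM in shCON to 4.09, 3.62 and 4.13 FPKM in shPAX6. The groups were well apart, with a log2 fold change of -1.37 (SE 0.16, limma adjusted p = 0.0199), but the call was lost without any 1 shCON library (adjusted p from 0.142 to 0.216), without shPAX6 library 3 (0.142), with median centring (0.0534) and with a correction for GC content (0.0728). SIX3, a forebrain and eye factor, was 1.62, 1.85 and 1.83 FPKM in shCON and 0.775, 0.812 and 0.556 FPKM in shPAX6, again without overlap (log2 fold change -1.21, SE 0.25, adjusted p = 0.0684). Groups also did not overlap for SIX2, TLE2 and TLE4, making 5 of 17 below and 0 above, beside 20.0% and 6.70% of all features. The median log2 fold change of the 17 was -0.30, against -0.12 over all tested features. At the other end, PAXBP1, which binds PAX3 and PAX7, was at 0.33 (adjusted p = 0.454) and TRIM11, a ubiquitin ligase that acts on PAX6 protein, at 0.07 (adjusted p = 0.88). Of the 5 epithelial markers, CDH1 was the 1 called, and it fell from 5.24 to 6.91 FPKM in shCON to 0.654 to 1.57 FPKM in shPAX6 (adjusted p = 0.0334, and 0.148 to 0.255 without any 1 shCON library or shPAX6 library 3). EPCAM was not called (log2 fold change -0.75, limma adjusted p = 0.0537), though every shPAX6 value lay below every shCON value. KRT8 (-0.28), KRT18 (0.07) and KRT19 (0.28) were not called either, and their groups overlapped. The part of these markers in the difference of SIX5 was not tested.

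**Figure D4:**
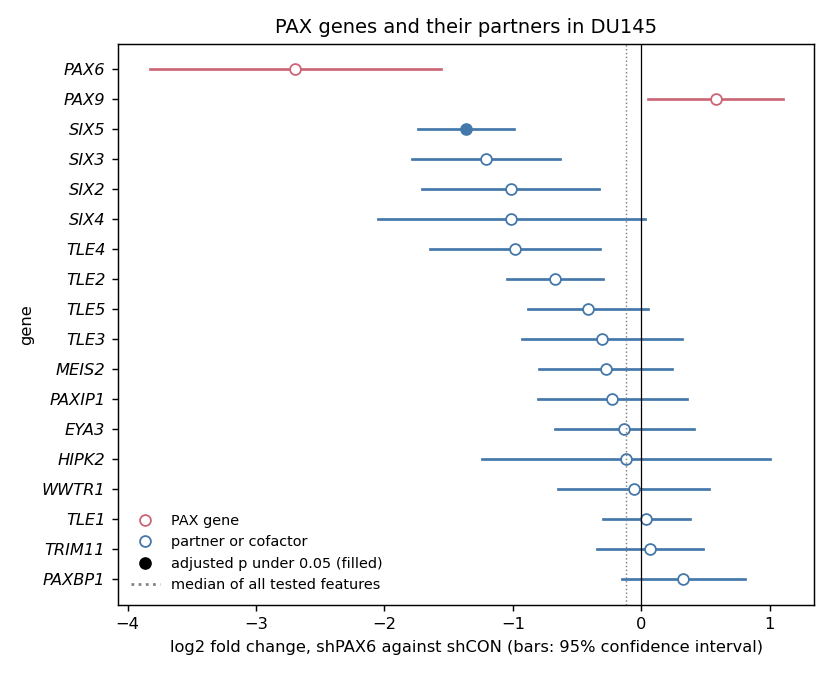
Log2 fold change of PAX6, PAX9 and 16 of the 17 tested PAX partners and cofactors in DU145, shPAX6 against shCON, with 95% confidence intervals from limma; the filled point passed the adjusted threshold and the dotted line is the median of all tested features. PAX6 lies farthest to the left, PAX9 farthest to the right, and SIX5 is the 1 filled point.

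In LNCaP, 25 of the 28 partners had over 3 counts in a library, and 6 were at least 2-fold lower and 0 at least 2-fold higher in LNCaP-ENZ on the log2(CPM + 0.1) scale, beside 16.6% and 5.97% of the 21870 genes with as many counts. Of the 25, 5 passed only in parental cells and 1 only in LNCaP-ENZ, and of the 19 that passed in both, 4 were at least 2-fold lower, beside the 10.2% of all genes. MAF, a leucine zipper factor, held 188 and 9 counts (log2 ratio -3.95, interval -5.35 to -3.24), and MEIS2, a homeodomain cofactor, held 8 and 0 counts (interval of the log2 ratio wholly below -0.58). EYA1, a transcriptional phosphatase, held 2 and 5 counts and SIX2 held 23 and 35, and both intervals included 0. SIX5, which fell in DU145, held 497 and 453 counts (log2 ratio 0.06, interval -0.13 to 0.24).

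Of 22 known PAX6 target genes of eye, brain and islet, 18 had a mean under 0.05 FPKM in DU145 and only SIX3 and L1CAM were tested. Neither was called, and L1CAM, a neural adhesion protein, was at 0.391, 0.455 and 0.529 FPKM in shCON and 0.417, 0.685 and 0.623 FPKM in shPAX6 (log2 fold change 0.26, SE 0.30, adjusted p = 0.713), with overlapping groups. L1CAM passed the filter only through shPAX6, where it averaged 0.575 FPKM against 0.459 FPKM in shCON. In LNCaP, 11 of these 22 genes had over 3 counts in a library, but 4 of them only in parental cells, where they could only come out lower. Of the 7 with over 3 counts in both libraries, 3 were at least 2-fold lower and 2 at least 2-fold higher, beside 10.2% and 2.84% of all genes. L1CAM held 108 and 14 counts (log2 ratio -2.61, interval -3.68 to -1.95) and MMP9, a matrix protease, 5 and 0 (interval reaching 0.32). The incretin receptor gene GLP1R held 12 and 29 counts (1.32, interval 0.45 to 2.57).

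Targets of the other PAX factors gave few values too. In DU145, 5 of 22 were tested, and 0 were called by limma, beside 1.02% called lower over all features. An unadjusted p under 0.05 was seen for 2 of them, beside 18.3% of all features. Their median log2 fold change was -0.43, but -0.054 without shPAX6 library 1 and -0.0024 without the filter. CD79A, a B lymphocyte target of PAX5, was 0.679, 1.18 and 1.13 FPKM in shCON and 0.683, 0.235 and 0.349 FPKM in shPAX6 (log2 fold change -1.13, SE 0.40, adjusted p = 0.203), with overlapping groups, while the leukocyte markers MS4A1 and PTPRC were listed at 0 in all 6 libraries. CD79A passed the filter only through shCON, where it averaged 0.997 FPKM against 0.422 FPKM in shPAX6. FGFR4, a target of PAX3 in muscle, was lower in every shPAX6 library (-0.66, SE 0.17, adjusted p = 0.107). MITF, the melanocyte factor driven by PAX3, was at 0.42 (adjusted p = 0.546), and BMP4, a signal that acts with PAX9 in tooth buds, at 0.02 (adjusted p = 0.98). Thyroid markers, 3 targets of PAX8, summed to at most 0.0291 FPKM in DU145 and to 27 and 29 counts in LNCaP. In LNCaP, 12 of the 22 targets had over 3 counts in both libraries, and 2 of these were at least 2-fold lower and 0 higher, beside the same shares of all genes. The largest differences lay in genes of few counts. TYRP1, a pigment enzyme, held 17 and 1 counts (-2.58, interval -9.28 to -1.22), and MYOD1, a muscle factor, 22 and 3 (-2.14, interval -5.07 to -0.95). DCT, another pigment enzyme, held 1 and 6.

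The study names STAT5A and MET downstream of PAX6. It picked STAT5A from these DU145 samples, so the STAT5A values are not independent evidence of a direction. STAT5A, a signal-dependent transcription factor, fell from 6.39, 5.68 and 6.80 FPKM in shCON to 1.99, 2.91 and 2.82 FPKM in shPAX6 (log2 fold change -1.27, SE 0.21, limma adjusted p = 0.0423). That call was lost without any 1 shCON library or shPAX6 library 3 (adjusted p from 0.194 to 0.298), and with the GC correction (0.0953). MET, a receptor tyrosine kinase, was 20.8, 16.7 and 19.5 FPKM in shCON and 12.1, 37.2 and 18.9 FPKM in shPAX6, with a log2 fold change of 0.11 (SE 0.37, adjusted p = 0.914) and shPAX6 library 2 as the high value. The study itself reports lower MET mRNA and protein in DU145 after PAX6 knockdown. It also reports PAX6 binding at the promoters of both genes by ChIP in LNCaP cells overexpressing PAX6. In LNCaP, STAT5A held 6 and 1 counts (interval of the log2 ratio -7.92 to 0.65) and MET 295 and 235 (-0.39 to 0.11), and both intervals included 0. For STAT5A, the study reports more total and phosphorylated protein in its enzalutamide-resistant LNCaP cells, a measure unlike these RNA counts.

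Over the 6 DU145 libraries, the features whose log2 values followed those of PAX6 most closely were ABCA3, a lipid transporter (Pearson r = 0.997), NTN1, the guidance cue netrin (0.996), and TUBGCP6, a subunit of the gamma-tubulin complex (0.995). The most opposed were BCCIP (-0.9995), PSMC1, a proteasome ATPase (-0.998), and DPH6, an enzyme of diphthamide synthesis (-0.997). PAX9 stood at -0.93. These are descriptions over 6 points that share their libraries and their group difference, and 1449 of 12050 features with a symbol lay beyond 0.9 in size.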

How the data were processed

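RNA sequencing of DU145 (3 shCON and 3 shPAX6 libraries) and LNCaP (1 parental and 1 LNCaP-ENZ library) was used, and samples were grouped by their labels. The ATAC-seq samples were not analysed here. Per the study's methods, the authors primed cDNA with oligo-dT, used HISAT2 for alignment to GRCh37 and StringTie for quantification, with versions not given in the sources used here. The submitters' processing notes also name STAR. For LNCaP the authors deposited raw counts and TPM. The DU145 table names no unit, and its deposited values were treated as FPKM. They held no shared step in low values (4.72% of ratios of 318 features in the fullest bin), so no count test was run.

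DU145 was tested with limma 3.58.1 (eBayes with trend, two-sided, Benjamini-Hochberg adjustment) on log2(FPKM + 0.1) over the 13574 of 24199 features that averaged 0.5 FPKM or more. The step was tested on simulated data. LNCaP counts were divided by library totals, with a floor of 3 counts and a pseudocount of 0.1 CPM in log2 ratios. The 95% intervals came from the counts without a pseudocount. At low counts the printed ratio is therefore drawn toward no difference, while its interval is not. Exact permutation tests and intervals used scipy 1.17.1, and TMM factors came from edgeR 4.0.16. Sequences came from GENCODE transcripts lifted to GRCh37, and the longest run was sought between any pair of coding sequences. Named genes were all 9 members, list genes past the threshold or with the 2 largest changes each way, genes that overlap a member, markers, and the 3 features most like and most unlike PAX6. SIX2, TLE2, TLE4 and the LNCaP value of SIX5 fall outside this rule and were chosen after their values were seen. Members and lists were chosen with earlier results of these data known. Alternatives were pseudocounts, filters, scalings, eBayes without a trend, a replicate block and each library left out. The GC correction (12009 features) was added after seeing the data. Some genes that this rule covers are not reported here.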

Additional observations from a re-analysis of the deposited data

How the results depend on the processing

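PAX6 stayed lower in all 15 alternatives that could give a value, from -3.79 to -0.97 on the log2 scale, with an adjusted p between 0.0103 and 0.33. It passed the threshold at -0.97 with a pseudocount of 1, at -2.69 without the intensity trend (adjusted p = 0.0485) and at -2.84 with the GC correction (adjusted p = 0.0305). Leaving out 1 library gave -3.16 to -2.31. At a mean of at least 1 FPKM, PAX6 was not tested. PAX9 stayed higher in all 16 alternatives, from 0.37 to 0.75, and passed in 0. PAX6 minus PAX9 on the log2 scale differed by -4.38 to -1.46 under other pseudocounts and by -3.91 to -2.68 with 1 library left out. In LNCaP, PAX1 ranged from -1.63 to -1.47 and PAX9 from -0.71 to -0.55 over pseudocounts, TMM and median scaling.

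Calls over all features numbered 163, and 100 with median centring, which moved the median log2 fold change from -0.12 to 0.06 and changed the split from 24 higher and 139 lower to 28 and 72. With quantile normalization it was 74 and 162, and with the GC correction 40 and 98. Leaving out 1 library gave 0 to 920 calls: 0 without shCON library 1 or 3, 5 without shCON library 2, 920 without shPAX6 library 1, 903 without shPAX6 library 2 and 10 without shPAX6 library 3. The limma fit with the replicate block called 0 features (1568 at an unadjusted p under 0.05), as did the block with the GC correction (1352). The block left the PAX6 adjusted p at 0.17. Deviations of libraries with the same number correlated at -0.17, -0.37 and 0.05. With 3 libraries per group, these values cannot decide whether the numbers pair the samples. SIX5 and STAT5A each kept direction in 16 alternatives and lost the call in 8. Uncalled genes near 0 changed sign. BMP4 went to -0.062 without shCON library 2, -0.0997 without shCON library 3 and -0.048 without shPAX6 library 2 (range over libraries left out -0.0997 to 0.22). DNAJC24 went to 0.12 with quantile normalization, 0.094 with median centring, 0.066 without shCON library 3 and 0.071 without shPAX6 library 1 (range -0.26 to 0.071). MET went to -0.32 without shPAX6 library 2 (range -0.32 to 0.49) and TRIM11 to -0.084 without shCON library 1 (range -0.084 to 0.16). The cause was not tested. The counts of PAX2 to PAX7 limit what LNCaP can show.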
